A study of Rattus norvegicus with 8 samples.

Results

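The 8 microRNAs described here, rno-miR-127-3p, rno-miR-434-3p, rno-miR-379-5p, rno-miR-494-3p, rno-miR-300-3p, rno-miR-539-5p, rno-miR-154-5p and rno-miR-541-5p, come from the imprinted Dlk1-Dio3 region. They were chosen by name from the 758 rat miRNAs with probes on an Agilent array. Their levels were measured in synovial tissue, the soft lining of the joint, taken from the left knee of Sprague-Dawley rats. In the 4 ACLT samples the anterior cruciate ligament had been cut, an operation used to model osteoarthritis. In the 4 sham samples the joint was opened in the same way and the ligament was exposed and left whole, so both groups had knee surgery. The labels do not settle the time after surgery: the series title gives 14 days, the sample protocol 2 weeks and the design text 7 days. Nothing in the labels says whether the 4 samples of a group came from separate animals, so a p-value here covers only the variation among these samples, which could be technical.

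The Dlk1-Dio3 region is imprinted, which means that its genes are read from only 1 of the parental copies. In mammals the protein-coding genes Dlk1, Rtl1 and Dio3 are read from the paternal copy. The long noncoding transcripts that carry the many miRNA hairpins of the region are read from the maternal copy. The region is known for its activity in the embryo, the placenta, the brain and growing muscle. Mature miRNAs pair with target messenger RNAs mainly through the seed, bases 2 to 8 from their 5′ end.

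All 8 miRNAs had a mature sequence in RefSeq, which places them on the plus strand of rat chromosome 6 in build GRCr8. They are printed 5′ to 3′ with the seed in capitals, in their order along the chromosome, because each probe measures 1 of them and close relatives lie on the same array.

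miR-127-3p (chr6:134328510-134328531): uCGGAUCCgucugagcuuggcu
miR-434-3p (chr6:134330451-134330472): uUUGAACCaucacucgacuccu
miR-379-5p (chr6:134543460-134543480): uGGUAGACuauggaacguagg
miR-494-3p (chr6:134550163-134550185): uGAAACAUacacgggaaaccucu
miR-300-3p (chr6:134559968-134559989): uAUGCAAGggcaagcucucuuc
miR-539-5p (chr6:134563606-134563627): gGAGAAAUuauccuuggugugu
miR-154-5p (chr6:134574366-134574387): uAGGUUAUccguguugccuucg
miR-541-5p (chr6:134578434-134578458): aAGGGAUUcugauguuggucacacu

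No pair of the 8 shared a seed, and among 693 rat mature sequences searched no other miRNA carried any of their seeds. miR-127-3p and miR-434-3p lie within 1963 bases of each other, and the other 6 lie within 34999 bases, with 212987 bases between the 2 groups. The closest relatives on the array were also Dlk1-Dio3 miRNAs in several cases. Lined up from the 5′ end, miR-154-5p had 18 bases alike with miR-494-5p, miR-300-3p had 17 with miR-381-3p, miR-494-3p had 16 with miR-377-3p and miR-379-5p had 15 with miR-380-5p. The relative of miR-300-3p is shown because its seed differs as well.

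miR-381-3p (chr6:134562422-134562439): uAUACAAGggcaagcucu

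Whether a probe of one binds its relative was not tested.

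The 8 arrays fell into a bright and a dim set that crossed the surgery groups. The 75th percentile of the processed signal, an intensity in scanner units over the 136 probes well above background everywhere, was 797.2, 1096.8, 353.0 and 305.2 in ACLT replicates 1 to 4. It was 289.1, 317.1, 353.2 and 1185.1 in sham replicates 1 to 4. ACLT replicates 1 and 2 and sham replicate 4 were thus the 3 brightest arrays, and the other 5 lay close together. It averaged 638 ± 378 in ACLT samples and 536 ± 433 in sham samples (SD, n = 4 each). By exact permutation, two-sided, p was 0.857 (smallest possible 0.0286, adjusted p = 0.857 over 2 measures per array). Levels below are log2 of the signal divided by this percentile, called scaled levels, and unscaled signals are given where the brightness matters. Values under a floor of -6.32 were set to it. A miRNA is called detected by the scanner software, Agilent Feature Extraction, and its brightest probe is called well above background where at least 0.5 of its spots were. These are bulk samples, so fewer cells of a type and less RNA per cell cannot be told apart.

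As a check of the tissue, miRNAs known from mesenchymal cells were checked first (4 of 5 detected on all 8 arrays), with a summed linear scaled level of 6.26 to 9.60 after ACLT and 5.71 to 8.57 after sham surgery. Of 4 neural miRNAs, miR-124-3p, miR-9a-5p and miR-9a-3p were detected on no array, and the remaining 1 was found on some arrays. The neural sum was 0.0219 to 0.0829 after ACLT and 0.0288 to 0.043 after sham surgery. Lists for leukocytes (3 of 5), erythroid cells (2 of 3), cartilage (2 of 3) and endothelium (1 of 2) also held miRNAs detected on all 8 arrays. Striated muscle miRNAs (4 of 5 detected on all 8) had a sum of 0.118 to 16.3 after ACLT and 1.45 to 6.30 after sham surgery. Differences with these miRNAs left out of the percentile are given below. Beyond that, the part of muscle in the results was not tested.

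Most of the members were detected on most arrays, but they were chosen with earlier results of these data known. Over all 758 rat miRNAs, 111 to 184 were detected per array. Of the 8, the number detected per array was 6, 6, 6 and 7 in ACLT replicates 1 to 4, and 5, 5, 6 and 7 in sham replicates 1 to 4. The mean was 6.25 ± 0.50 for ACLT and 5.75 ± 0.957 for sham arrays (SD, n = 4 each), a difference that did not pass an exact two-sided permutation test (p = 0.629, adjusted p = 0.857 over 2 measures). miR-127-3p, miR-379-5p, miR-154-5p and miR-494-3p were detected on all 8 arrays. miR-541-5p was detected on none. Fewer passed the stricter rule on the dim arrays: the number of members well above background was 6, 6, 3 and 4 after ACLT and 4, 4, 3 and 6 after sham surgery.

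**Figure D1:**
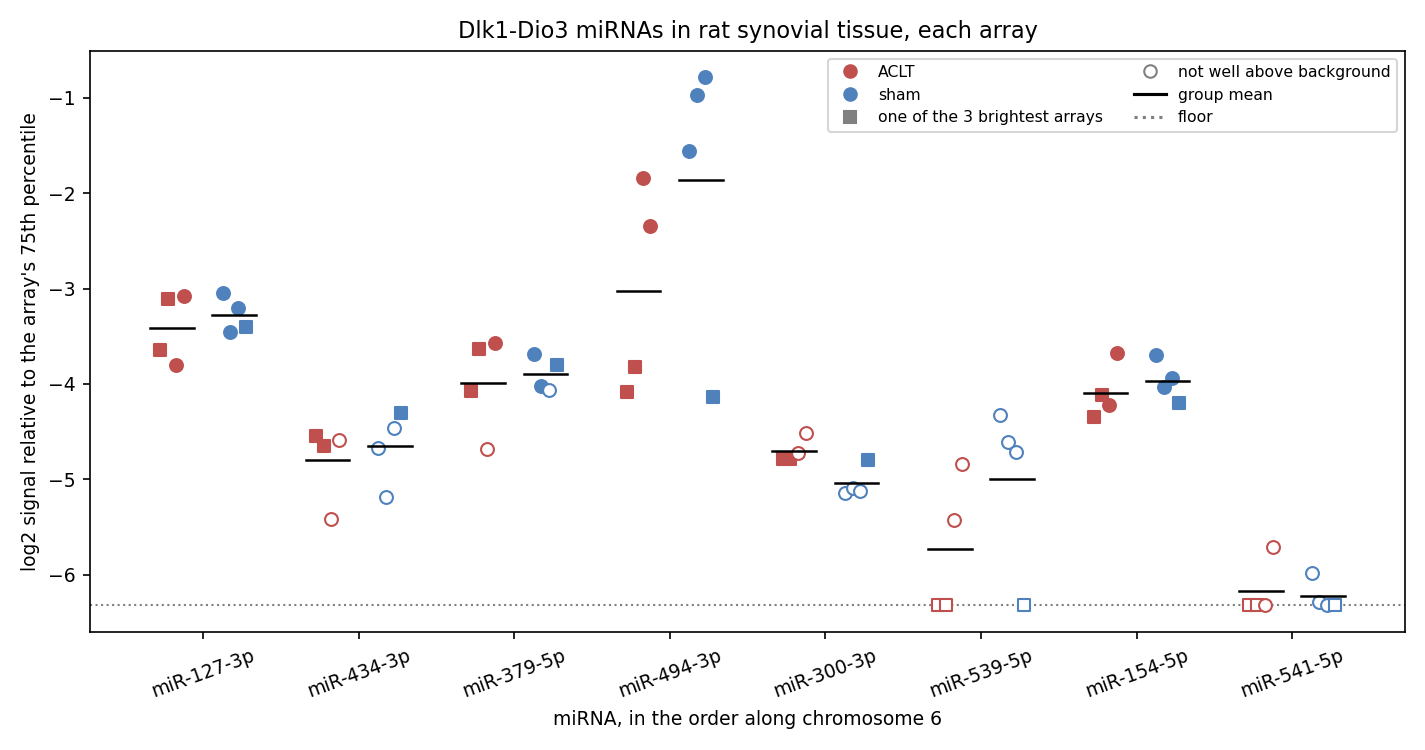
Scaled level of each of the 8 miRNAs on each array, with ACLT left of sham, on a log2 scale relative to the array's 75th percentile. Squares mark the 3 brightest arrays, open symbols a probe not well above background, bars the group mean of 4 arrays and the dotted line the floor at -6.32. The squares of miR-494-3p, between -4.14 and -3.83, sit below its circles, between -2.35 and -0.78, and the groups of all members but miR-300-3p overlap.

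Across the whole array, 113 miRNAs could be tested by the rule of detection on all 4 arrays of at least 1 group, and they include 6 of the 8 members. miR-434-3p and miR-541-5p missed that rule. By limma with Benjamini-Hochberg adjustment over the 113, 0 members passed 0.05, beside 0% of all tested miRNAs (0 of 113). At an unadjusted p under 0.05 limma held 1 of the 6 members, miR-300-3p, beside 4.42% of all tested (5 of 113). That member met the rule only through ACLT, the group where it was higher, so the p is no support for a difference. Of the 6 members, 1 had a higher and 5 a lower mean after ACLT, with a median difference of -0.13 (log2). Over all 113 the median difference was also -0.13, with 38 above and 75 below 0, so the members' median lay at that of the array. The split of all 113 turned with the scaling. It was 93 above and 20 below by the percentile over all probes, 90 and 23 unscaled, and 104 and 9 by the hybridization spike-in. With striated muscle miRNAs left out of the percentile it was 59 and 54. The members miR-127-3p, miR-379-5p and miR-154-5p turned with it in each of these settings.

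**Figure D2:**
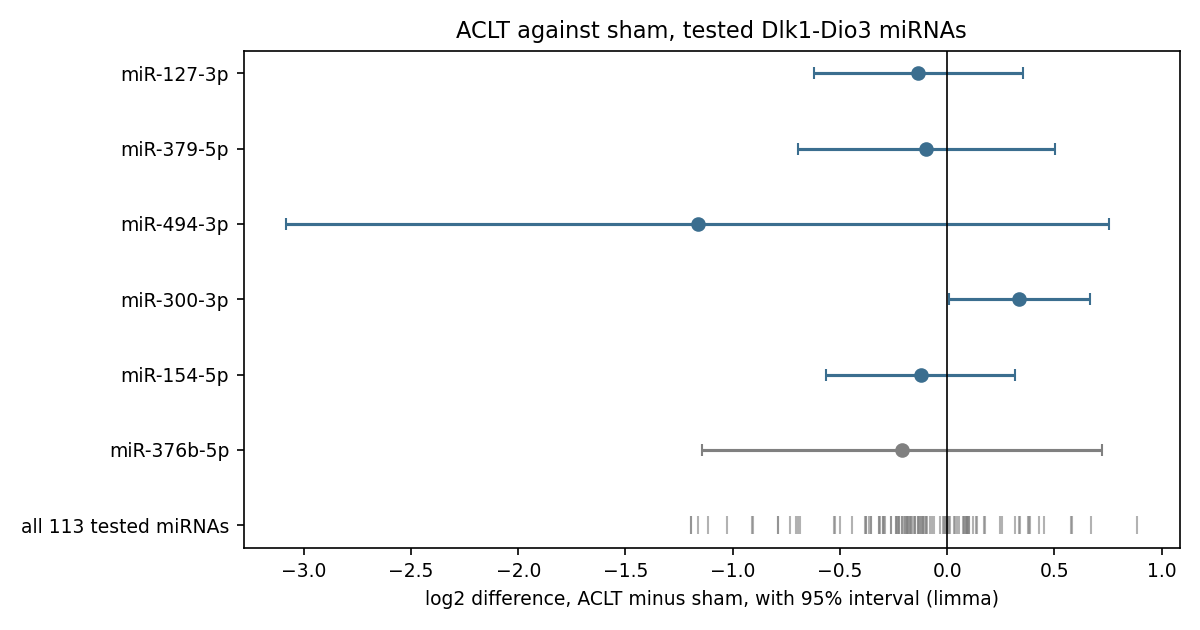
Log2 difference, ACLT minus sham, of 5 tested members and of miR-376b-5p (grey), with the 95% interval from limma on 4 arrays per group, above tick marks for all 113 tested miRNAs. The interval of miR-494-3p runs from -3.08 to 0.76, and that of miR-300-3p, 0.01 to 0.66, is the only one of the 6 that leaves out 0 before adjustment. miR-300-3p was tested only through its detection in ACLT, the group where it was higher, so its interval is no support for a difference. miR-539-5p, well above background on no array, is not drawn.

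miR-127-3p, which in the mouse is transcribed antisense to Rtl1 and directs cleavage of its messenger RNA, varied little between arrays. Its scaled level was -3.65, -3.11, -3.81 and -3.08 in ACLT replicates 1 to 4, and -3.04, -3.46, -3.20 and -3.40 in sham replicates 1 to 4. The groups overlapped and the whole span over 8 arrays was 1.70-fold. It averaged -3.41 ± 0.37 in ACLT and -3.28 ± 0.19 in sham samples (SD, n = 4 each), a log2 difference of -0.13 (SE 0.21, 95% interval -0.62 to 0.36, limma adjusted p = 0.868).

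miR-434-3p, whose hairpin also lies antisense to Rtl1 in the mouse, was near the limit of measurement. On the scaled measure it had -4.54, -4.65, -5.42 and -4.59 in ACLT replicates 1 to 4, and -4.67, -5.18, -4.46 and -4.30 in sham replicates 1 to 4. It was detected on ACLT replicates 1, 2 and 4 and on sham replicates 3 and 4, and it was well above background only on the 3 brightest arrays. The groups overlapped. In a limma fit of the 199 miRNAs detected on at least 1 array the log2 difference was -0.15 (SE 0.27, 95% interval -0.78 to 0.48, adjusted p = 0.870).

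miR-379-5p gives its name to the large hairpin cluster downstream of Rtl1. The 4 ACLT replicates had scaled levels of -4.07, -3.63, -4.68 and -3.57, and the 4 sham replicates had -3.69, -4.02, -4.06 and -3.81. ACLT replicate 3 was the lowest array, and there, as on sham replicate 3, the probe was not well above background. It averaged -3.99 ± 0.51 in ACLT and -3.89 ± 0.18 in sham samples (SD, n = 4 each), a log2 difference of -0.10 (SE 0.26, 95% interval -0.70 to 0.50, limma adjusted p = 0.933). Without ACLT replicate 3 the difference was 0.13.

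miR-154-5p comes from further along the same cluster. Scaled levels were -4.35, -4.12, -4.22 and -3.68 in ACLT replicates 1 to 4, and -3.70, -4.03, -3.94 and -4.20 in sham replicates 1 to 4. It was well above background on all 8 arrays, spanned 1.59-fold and the groups overlapped. It averaged -4.09 ± 0.29 in ACLT and -3.97 ± 0.21 in sham samples (SD, n = 4 each), a log2 difference of -0.12 (SE 0.19, 95% interval -0.56 to 0.32, limma adjusted p = 0.868).

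miR-300-3p entered the tested set only through the ACLT group, where it was detected on 4 of 4 arrays against 1 of 4 sham arrays, so its comparison is given as a description. The scaled values were -4.78, -4.79, -4.72 and -4.52 in ACLT replicates 1 to 4, and -5.14, -5.09, -5.12 and -4.80 in sham replicates 1 to 4. Every ACLT array lay above every sham array, but the lowest ACLT array and sham replicate 4 differed by only 0.01. Such a separation with ACLT above sham was found in 0.885% of the tested miRNAs (1 of 113, miR-300-3p itself), and the opposite one in 0%. The means were -4.70 ± 0.13 for ACLT and -5.04 ± 0.16 for sham arrays (SD, n = 4 each), a log2 difference of 0.34 (SE 0.14, 95% interval 0.01 to 0.66), with a limma adjusted p of 0.766. No fold is given, since most of these signals were not well above background. The sham array with detection was replicate 4. The probe of miR-300-3p was well above background on ACLT replicates 1 and 2 and sham replicate 4, the 3 brightest arrays, and was not on the other 5. With background corrected by normexp on the median signals, the difference was -0.17. It was 2.40 with the software's summary per miRNA (limma adjusted p = 0.343) and 1.25 in the authors' value table.

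miR-494-3p had the widest span of the 6 members that were above the floor on every array. Its scaled level was -4.08, -3.83, -1.84 and -2.35 in ACLT replicates 1 to 4, and -1.56, -0.97, -0.78 and -4.14 in sham replicates 1 to 4. It was low on the 3 brightest arrays and high on the other 5, a span of 10.2-fold, and the groups overlapped. The probe was well above background on all 8 arrays, and its spots varied by 4.44% to 13.5% (coefficient of variation) within an array. It averaged -3.02 ± 1.10 in ACLT and -1.86 ± 1.55 in sham samples (SD, n = 4 each), a log2 difference of -1.16 (SE 0.83, 95% interval -3.08 to 0.76, limma adjusted p = 0.868). Its second probe was well above background on no array.

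The slide held replicates 1 and 2 of both groups in row 1 and replicates 3 and 4 in row 2. Within row 1 the log2 difference of miR-494-3p was -2.69 (limma adjusted p = 0.0122, 2 arrays against 2), where 18.6% of the tested miRNAs passed (21 of 113). In row 1 both ACLT arrays are bright and both sham arrays dim, so surgery and brightness cannot be told apart there. Within row 2, where sham replicate 4 is the bright array, the difference was 0.36 and did not pass (adjusted p = 0.886). Without the 3 brightest arrays, a comparison of ACLT replicates 3 and 4 with sham replicates 1 to 3 added after seeing the data, miR-494-3p averaged -2.10 after ACLT and -1.10 after sham surgery. That difference of -0.99 (SE 0.28) had a limma adjusted p of 0.0333, beside 13.3% of the tested miRNAs (15 of 113), and it was the only member to pass.

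The unscaled signal of miR-494-3p was 47.1, 77.3, 98.3 and 60.0 in ACLT replicates 1 to 4, and 98.2, 161.9, 205.1 and 67.4 in sham replicates 1 to 4. Among the 5 dimmer arrays it was highest on sham replicates 3 and 2 and lowest on ACLT replicate 4. The hybridization spike-in, a labelled control added to every array, had 922, 727, 738 and 503 in ACLT replicates 1 to 4 and 742, 1121, 1273 and 796 in sham replicates 1 to 4, and was also highest on sham replicates 3 and 2 and lowest on ACLT replicate 4. Divided by that spike-in, the signal of miR-494-3p was 0.0511, 0.106, 0.133 and 0.119 in ACLT replicates 1 to 4 and 0.132, 0.144, 0.161 and 0.0846 in sham replicates 1 to 4. With arrays scaled to the spike-in, also added after seeing the data, the log2 difference was -0.40 (SE 0.49, limma adjusted p = 0.578) over all arrays. It was -0.21 (SE 0.33, adjusted p = 0.598) without the 3 brightest. This order of the unscaled signal on the 5 dimmer arrays was found in 2.65% of the tested miRNAs (3 of 113, miR-494-3p included).

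**Figure D3:**
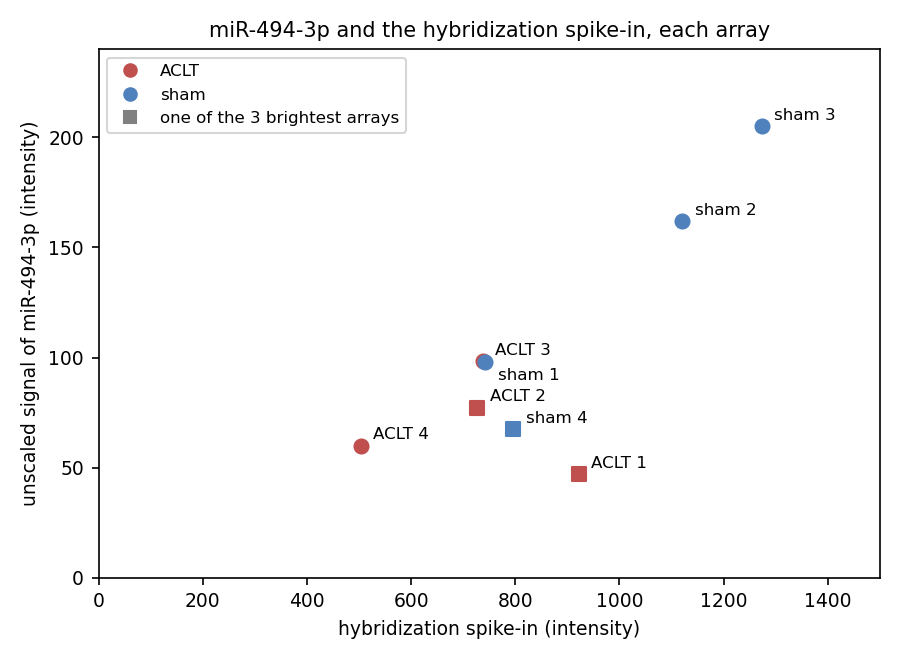
Unscaled signal of miR-494-3p (intensity) against the hybridization spike-in (intensity), 1 symbol per array, ACLT in red and sham in blue, with squares for the 3 brightest arrays. Among the circles the signal climbs with the spike-in, between 60.0 on ACLT replicate 4 and 205.1 on sham replicate 3, while the squares stay between 47.1 and 77.3.

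miR-539-5p was detected on ACLT replicates 3 and 4 and on all 4 sham arrays, yet none of its brightest probe's signals was well above background, so no fold is given. After scaling it was at the floor on ACLT replicates 1 and 2 and had -5.43 and -4.84 on ACLT replicates 3 and 4. It was -4.33, -4.61 and -4.71 on sham replicates 1 to 3 and at the floor on sham replicate 4. Its scaled level, like that of miR-494-3p, was lowest on the 3 brightest arrays, all at the floor, and the groups overlapped. The limma adjusted p was 0.868. Its lowest unscaled signal lay on a dimmer array, ACLT replicate 3. Its unscaled signal moved little, at 9.0, 8.3, 8.2 and 10.7 in ACLT replicates 1 to 4 and 14.4, 13.0, 13.5 and 9.8 in sham replicates 1 to 4. It met the rule for testing only through the sham group. Within row 1 its limma adjusted p was 0.0122 with both ACLT arrays at the floor, which is no support for a difference.

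miR-541-5p gave unscaled signals of 3.1 to 6.4 and was well above background nowhere. Its scaled level was at the floor on ACLT replicates 1 to 3 and sham replicates 3 and 4, and it was -5.71 on ACLT replicate 4, -5.98 on sham replicate 1 and -6.29 on sham replicate 2. No difference between the groups is given, since neither held a signal well above background.

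The members also differed in how they followed the brightness of the array. The unscaled signal of miR-127-3p was 63.7, 127.4, 25.2 and 36.0 in ACLT replicates 1 to 4, and 35.1, 28.8, 38.4 and 112.3 in sham replicates 1 to 4. It was thus higher on each of the 3 brightest arrays than on any other. The same held for miR-379-5p, miR-154-5p, miR-434-3p and miR-300-3p, and for 74.3% of the tested miRNAs (84 of 113). Their unscaled signals spanned 3.4-fold for miR-154-5p up to 7.3-fold for miR-434-3p, and division by the array's percentile reduced the spans to 1.54-fold for miR-300-3p, 1.59-fold for miR-154-5p, 1.70-fold for miR-127-3p and 2.16-fold for miR-379-5p. miR-494-3p and miR-539-5p lay lower on all 3 brightest arrays after scaling, as 29.2% of the tested miRNAs did (33 of 113). Before scaling neither was higher there.

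**Figure D4:**
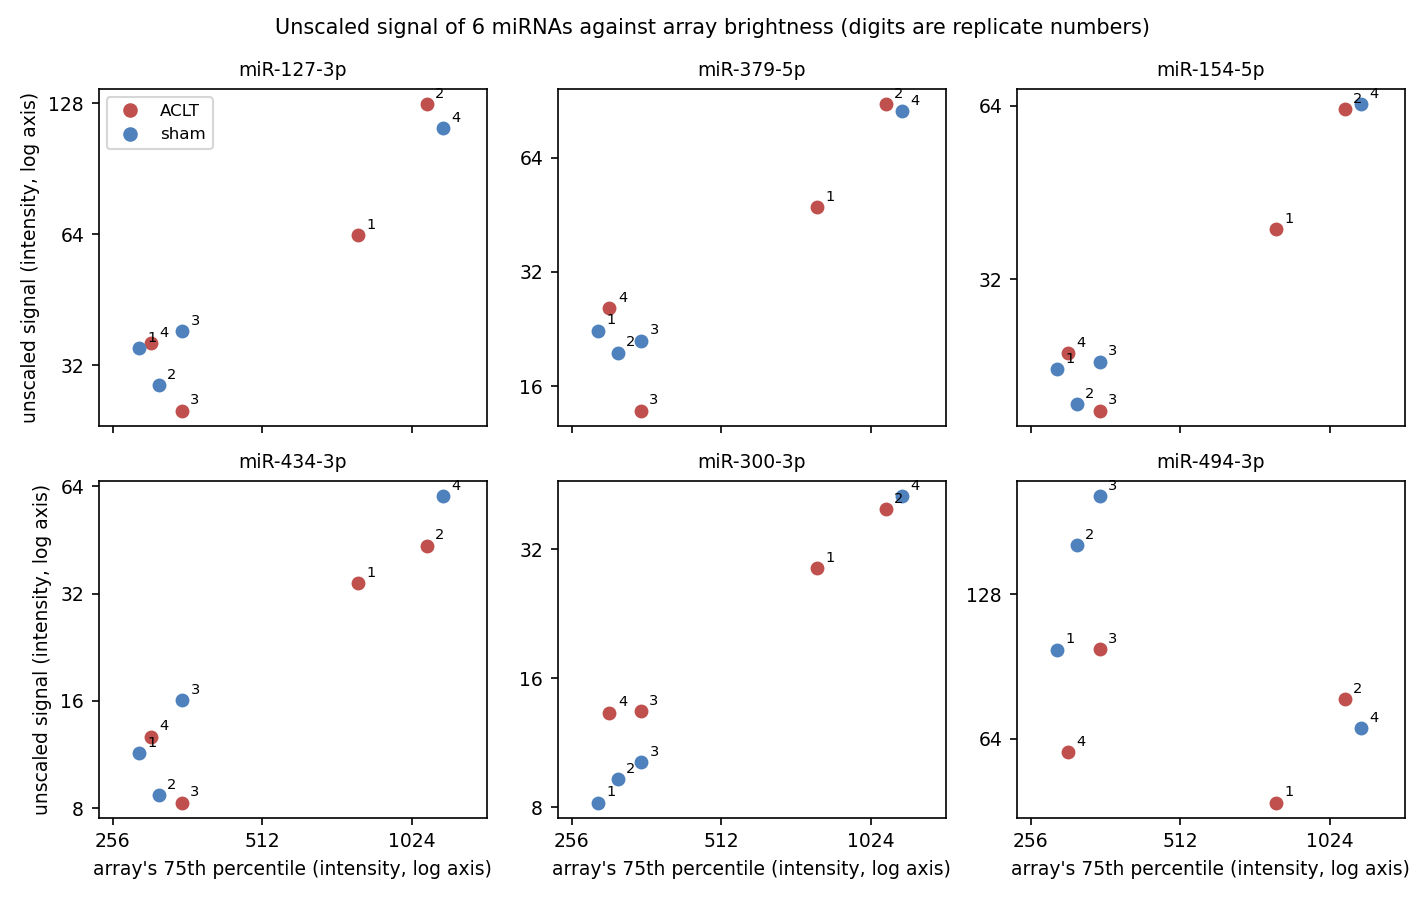
Unscaled signal of 6 miRNAs (intensity, log axis) against the 75th percentile of the array (intensity, log axis), with ACLT in red, sham in blue and the replicate number beside each point. In 5 panels the 3 arrays at the right, with percentiles of 797.2 to 1185.1, hold the highest signals, and in the panel of miR-494-3p they do not.

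The members could be set against each other where both were above the floor on all 8 arrays. That held for 6 members and 15 pairs. Of these members, miR-300-3p and miR-434-3p were well above background on only 3 arrays and miR-379-5p on 6. Pairs with miR-300-3p or miR-434-3p therefore rest largely on signals near background. On scaled levels, 10 pairs had a positive and 5 a negative Pearson's r, between -0.57 and 0.86 with a median of 0.12, and 0 of the 15 passed an exact permutation test after adjustment over the pairs. The highest was between miR-127-3p and miR-379-5p, with r = 0.864 (exact permutation p = 0.00409, adjusted 0.0614) and Spearman's rho = 0.857 (p = 0.0107, adjusted 0.115). Without ACLT replicates 1 and 3, the arrays farthest from the median of miR-127-3p, r was 0.664. For miR-154-5p and miR-127-3p, r was 0.784 (exact permutation p = 0.0237, adjusted 0.178) and rho 0.833 (p = 0.0154, adjusted 0.115), and r was 0.642 without ACLT replicate 4 and sham replicate 1. miR-379-5p and miR-434-3p had r = 0.671, which was 0.135 without the 2 farthest arrays. Scaled values of one array share its percentile, which can move all members together.

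For miR-494-3p, r was -0.567 to miR-300-3p, -0.460 to miR-434-3p, -0.270 to miR-379-5p, 0.124 to miR-127-3p and 0.543 to miR-154-5p. For miR-300-3p, the other values were -0.164 to miR-154-5p, -0.175 to miR-127-3p, 0.041 to miR-379-5p and 0.030 to miR-434-3p. None of these passed. With arrays scaled to the labelling spike-in, a control labelled along with the sample, 5 of the 15 pairs passed by r. They were miR-127-3p with miR-154-5p (0.973), miR-379-5p (0.958) and miR-434-3p (0.860), and miR-379-5p with miR-154-5p (0.900) and miR-434-3p (0.889). No pair with miR-494-3p or miR-300-3p was among them. The median r of the 15 pairs was 0.741 with this scaling, beside 0.124 on scaled levels. It does not divide by the array's percentile, so brightness that remains can move all members together. Its part in these pairs was not tested.

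As a description, the 102 tested miRNAs not listed for the region that were above the floor on all 8 arrays were ranked by r to each member. miR-494-3p ran closest to miR-1224 (r = 0.980, n = 8 arrays) and miR-26a-5p (0.967). miR-154-5p ran closest to miR-3558-3p (0.872) and miR-500-3p (0.858), and miR-300-3p to miR-22-3p (0.834) and miR-128-3p (0.793). For miR-379-5p the closest were miR-652-3p (0.685) and miR-196b-5p (0.568), for miR-434-3p miR-451-5p (0.528) and miR-92a-3p (0.526), and for miR-127-3p miR-20a-5p (0.509) and miR-345-5p (0.508). All points share each array's labelling and percentile. miR-1224 and miR-26a-5p, like miR-494-3p, were lower on the 3 brightest arrays than on the other 5.

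The rest of the region was mostly below detection, as was the array as a whole. The array holds 93 listed Dlk1-Dio3 mature miRNAs, the 8 members and 85 others, and the 89 found in RefSeq all lie between Dlk1 and Dio3. A further 11 miRNAs on the array also lie between these genes but are not on the list. Counts for the region cover the 93 listed, and the 11 are counted among the 665 outside. Of the 85 others, 17 were found on at least 1 array and 68 (80.0%) on none, beside 490 of 665 miRNAs outside the region on none (73.7%). With the members included, 24 of the 93 were found on at least 1 array, beside 175 of the 665 outside. Counting members too, the number detected was 15, 20, 7 and 8 in ACLT replicates 1 to 4, and 6, 7, 8 and 23 in sham replicates 1 to 4. The 3 brightest arrays therefore held 15 to 23 of the region's miRNAs and the other 5 held 6 to 8. As shares of the 93 these were 16.1% to 24.7% and 6.5% to 8.6%, beside 20.2% to 24.2% and 15.8% to 17.9% of the miRNAs outside the region.

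Of the 17 others, 15 (88.2%) were detected only on brightest arrays, beside 43 of the 175 detected miRNAs outside the region (24.6%). The members, chosen with earlier results known and mostly detected on most arrays, are left out of the 17. With them, it was 15 of the 24 detected miRNAs of the region. Of those 15, the software detected miR-136-5p, miR-299a-5p, miR-329-3p, miR-369-5p, miR-376a-3p, miR-381-3p, miR-411-3p and miR-411-5p on all 3 brightest arrays. On ACLT replicate 2 and sham replicate 4 it detected miR-127-5p, miR-136-3p, miR-337-3p, miR-376c-3p and miR-382-5p, and on sham replicate 4 alone miR-299b-3p and miR-341. Where detected, their summary signals were low, for example 17.2 to 24.5 for miR-381-3p and 13.4 to 33.2 for miR-411-3p. miR-370-3p was the exception in the other direction, detected on sham replicates 2 and 3 only.

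miR-411-5p, the neighbour of miR-379-5p, resembles it with 14 bases alike and a different seed. Its sequence is shown to set its seed beside that of miR-379-5p.

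miR-411-5p (chr6:134544604-134544624): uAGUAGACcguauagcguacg

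miR-411-5p had a summary signal of 11.3 to 29.4 on the 3 brightest arrays and was not detected on the other 5, where miR-379-5p still was.

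miR-376b-5p was the only other listed miRNA of the region that could be tested. Its scaled level was -5.52, -5.80, -4.52 and -4.34 in ACLT replicates 1 to 4, and -4.74, -4.47, -4.52 and -5.61 in sham replicates 1 to 4. Its scaled level was lowest on the 3 brightest arrays and the groups overlapped. Its unscaled signal, at 17.4, 19.7, 15.3 and 15.1 in ACLT replicates 1 to 4 and 10.8, 14.3, 15.4 and 24.3 in sham replicates 1 to 4, was highest on those 3, unlike that of miR-494-3p and miR-539-5p. The probe was well above background on 1 ACLT array and 2 sham arrays. The log2 difference was -0.21 (SE 0.40, 95% interval -1.14 to 0.72, limma adjusted p = 0.881). Together with the members, 7 listed miRNAs of the region were tested, 1 with a higher and 6 with a lower mean after ACLT. None passed the threshold in either direction, and the median difference was -0.13.

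**Figure D5:**
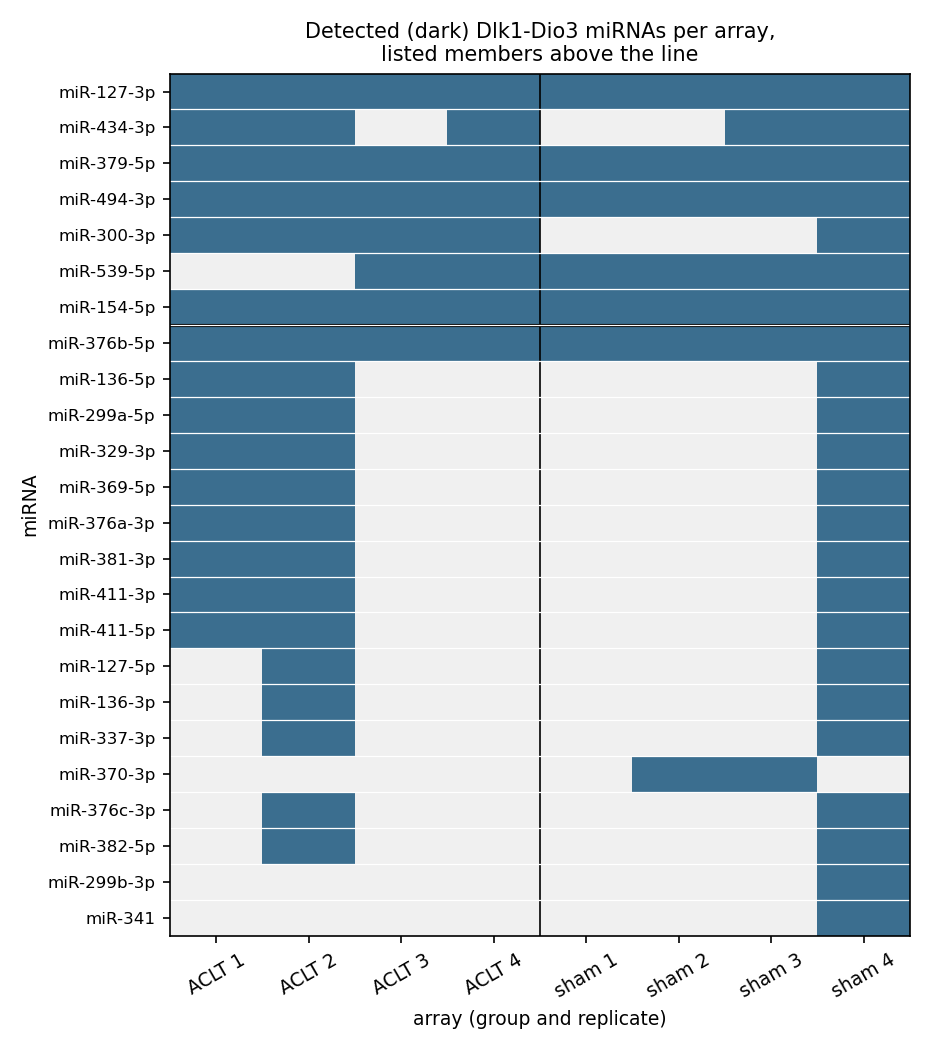
Detection of the 24 listed Dlk1-Dio3 miRNAs found on at least 1 array, with members above the line and others below it. ACLT arrays are at the left and sham arrays at the right (dark, detected). The columns of ACLT replicates 1 and 2 and sham replicate 4 hold 15, 20 and 23 dark cells and the other columns 6 to 8.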

How the data were processed

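Total RNA (50 ng) from 8 synovial samples was labelled with Cy3 and hybridized to 1-colour arrays, all on 1 slide scanned on 1 day. The labels name a labelling kit sold for messenger RNA, and the sources do not settle which kit was used. Per the file headers, the authors read the scans of array design 070154 in Agilent Feature Extraction, version 10.7.3.1; the processed signal is an intensity, background-subtracted and not scaled between arrays. The deposited value table, also a linear intensity, equalled the software's summary per miRNA (largest difference 0, each column's median 0.1).

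Control spots and outlier spots (9.01% to 11.1%) were dropped, and the remaining spots of each probe averaged. Arrays were scaled by the 75th percentile of the 136 of 1806 probes well above background on all arrays. A floor of 0.0125, the lowest scaled signal of any probe well above background on any array, was set and log2 taken from the deposited intensity. A miRNA is its brightest probe by the mean over the 8 arrays. Groups were compared with lmFit and eBayes of limma 3.58.1 under R 4.3.3 (Benjamini-Hochberg at 0.05), which was tested on simulated data, and single values by exact permutation over all 70 arrangements, enumerated with numpy 2.4.6. Between 10.5% and 17.0% of spots per array were well above background and 0 were saturated, which limits precision for dim miRNAs, as does the number of arrays.

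The members and all lists were chosen with earlier results of these data known. Named are the 8 members, the other listed miRNAs of the region detected on at least 1 array, and for each member the 2 unlisted miRNAs most alike. The alternatives were other scalings, summaries, filters and floors, a block for slide row or for replicate number, and fits that each omit 1 array. Same-numbered ACLT and sham arrays deviated from their group means with correlations of -0.378, 0.513, 0.801 and -0.510. Arrays with different numbers reached 0.745 (ACLT replicate 1, sham replicate 4) and 0.865 (ACLT replicate 4, sham replicate 3). Such values cannot decide whether the numbers pair the samples, and the labels state no pairing. Sequences and GRCr8 positions are RefSeq's; the array files name build rn4, from which no position is given.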

Additional observations from a re-analysis of the deposited data

Results flagged for a closer look

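In groups of 4, the highest or lowest array was checked for lying far from the other 3, and 6 of 22 group values did. Chance gives about 1.1, but only for values that vary freely without ties. Levels at the floor, as for miR-541-5p, and whole counts, as for members detected, are tied. The 6 can therefore not be set against that number. miR-300-3p was highest on sham replicate 4 at -4.80, while sham replicates 1 to 3 had -5.14 to -5.09. miR-434-3p was lowest on ACLT replicate 3 at -5.42, against -4.65 to -4.54 on the other ACLT arrays. miR-541-5p, detected nowhere, was highest on ACLT replicate 4 at -5.71, with the other ACLT arrays at the floor of -6.32, and on sham replicate 1 at -5.98, with the other sham arrays at -6.32 to -6.29. ACLT replicate 4 had 7 members detected and the other ACLT arrays 6. The 75th percentile of sham replicate 4 was 1185.1, while sham replicates 1 to 3 had 289.1 to 353.2.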

How the results depend on the processing

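The number of miRNAs past the adjusted p of limma stayed at 0 of 113 with each array left out (0 to 0). It was 1 with the software's summary per miRNA (not a member) and 21 within slide row 1. Without the 3 brightest arrays it was 15, and also 15 without them on spike-in scaling. Of the other listed miRNAs of the region, 1 passed within row 1, miR-376b-5p (difference -1.05). Its unscaled signal there was higher after ACLT, at 17.4 and 19.7 against 10.8 and 14.3 after sham surgery. Surgery and brightness cannot be told apart in that row, so this pass is no support for a difference. The replicate block called 0. It cannot change a difference (-1.16 for miR-494-3p), since each replicate number has 1 ACLT and 1 sham array. Scaling moved all miRNAs together: the median difference over the 113 was -0.13 as reported, 0.24 by the percentile over all probes, 0.19 unscaled, 0.63 by the hybridization spike-in, -0.33 by the labelling spike-in and 0.21 in the authors' value table, with 38 higher and 75 lower as reported against 93 and 20, 90 and 23, 104 and 9, 14 and 99, and 87 and 26; quantile normalization gave 56 and 57, and leaving striated muscle miRNAs out of the percentile 59 and 54. The median of the 7 region miRNAs followed at 0.24, 0.19, 0.63 and 0.18 under the percentile over all probes, no scaling, the hybridization spike-in and the authors' table, and was 0.34 within row 2, 0.58 without the 3 brightest arrays on spike-in scaling, and -0.26 to -0.06 with each array left out.

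The signs of miR-539-5p, well above background on no array, carry no direction. Signs turned for single members as follows. miR-154-5p was 0.25, 0.20, 0.12, 0.64, 0.019 and 0.18 under the percentile over all probes, no scaling, quantile normalization, the hybridization spike-in, the percentile without muscle miRNAs and the authors' table. miR-127-3p was 0.24, 0.19, 0.17, 0.63, 0.009 and 0.28 under the same 6, and miR-379-5p 0.28, 0.23, 0.17, 0.67, 0.046 and 0.24. Without the 3 brightest arrays on spike-in scaling, miR-154-5p was 0.72, miR-127-3p 0.57, miR-379-5p 0.58 and miR-539-5p 0.15. miR-539-5p was 0.033 with that scaling over all arrays. Within row 2, miR-494-3p was 0.36, miR-154-5p 0.12 and miR-539-5p 0.38; within row 1 miR-379-5p was 0.0. miR-300-3p was -0.17 with normexp, 2.40 with the software's summary and 1.25 in the authors' table. With each array left out, miR-494-3p ranged between -1.92 (without sham replicate 4) and -0.80, miR-539-5p between -1.18 and -0.51, miR-300-3p between 0.27 and 0.42, miR-127-3p between -0.24 and 0.00, miR-154-5p between -0.26 and -0.03 and miR-379-5p between -0.24 and 0.13. The percentile difference was 101.9, ranged between -51.0 (without ACLT replicate 2) and 318.2, and was -0.043 over all probes; members detected differed by 0.25 to 0.917. Pairs past the threshold were 5 with the labelling spike-in, which does not divide by the array's percentile, and 0 in the other 3 settings. No pooled correlation was taken on unscaled values or on the percentile over all probes, where the arrays fall into 2 clusters of brightness. The scaled levels of miR-494-3p fall into 2 such clusters as well, so the r values given for it span both. The causes were not tested. Signal over background limits miR-541-5p and miR-539-5p on all arrays and miR-434-3p and miR-300-3p on the 5 dimmer ones.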
